A study of Mus musculus with 16 samples.

Results

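Txnip and its relatives Arrdc1, Arrdc2, Arrdc3 and Arrdc4 belong to the α-arrestin family of the mouse, whose remaining member Arrdc5 was not analysed here. The members were chosen by gene symbol, and these 5 genes were among 14925 genes with a symbol and held 11 of 30622 3′-UTR regions. RNA that came down with CPEB4 was sequenced (RIP-seq) from BMDMs, macrophages that were differentiated for 7 days from the femoral marrow of adult mice in L-cell medium, a source of M-CSF. CPEB4 is a cytoplasmic polyadenylation element binding protein, and the experiment asks which mRNAs come down with an anti-CPEB4 antibody. The CPEB4 WT samples, titled 76, and the CPEB4 KO samples, titled 73, are labelled with the strain C57BL/6J 129. Whether a title number stands for 1 animal is not given in the sources used here. The paper describes the mice as total Cpeb4 KO, and the KO RIP is the control for the antibody. Cells of each genotype were left untreated or stimulated for 9 h with 10 ng/ml LPS, a bacterial lipopolysaccharide that activates macrophages. A RIP and an Input library were made from each of these 4 conditions, which gives 8 libraries with 1 library per group. No difference between these libraries has a replicate check. Each test compares the reads of 2 libraries, not the conditions, and every interval covers counting error only. Outside these libraries, the paper lists Txnip among CPEB4 targets that were described before. It also reports CPEB4 binding to Txnip by RIP and RT-qPCR, with replicates, in WT and KO cells given LPS for 9 h.

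α-Arrestins are adaptor proteins that share the arrestin fold with the visual and β-arrestins. Most of them carry PPxY motifs that recruit ubiquitin ligases of the NEDD4 family to receptors and transporters, which are then internalised or degraded. TXNIP, the best known member, also binds thioredoxin and inhibits it, restrains glucose uptake, and has been linked to activation of the NLRP3 inflammasome in macrophages. Txnip and Arrdc4 are both known targets of the glucose-sensing factors Mondo and Mlx. CPEB proteins bind the cytoplasmic polyadenylation element, or CPE, a U-rich 3′-UTR sequence whose distance to the polyadenylation hexanucleotide bears on the fate of the poly(A) tail.

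In untreated and LPS-stimulated cells, Txnip and Arrdc4 passed the calling rule for a higher level in the WT RIP than in the KO RIP, and Arrdc3 did so in untreated cells. Arrdc1 and Arrdc2 did not pass it. The 3 genes Txnip, Arrdc3 and Arrdc4 were also the only members whose deposited annotation carried a CPE prediction. The untreated call of Arrdc4 rested on 8 reads in the KO RIP and on an unadjusted p-value. With a variation of 0.4 between libraries set in edgeR, no member was called untreated, where 1.03% of genes were called higher. Txnip fell after LPS and Arrdc4 rose, in the Input and in the RIP of both genotypes.

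The libraries were examined first. They held between 467696 and 2492300 reads over 3′-UTRs, with the lowest counts in both KO RIPs. The targeted gene, Cpeb4, had 130.2 CPM (reads per 1000000 3′-UTR reads) in the WT Input and 52.0 in the KO Input of untreated cells, and 136 and 52.6 with LPS. In the RIPs it had 836 CPM in WT and 256.6 in KO untreated, and 770.4 and 367 with LPS. Cpeb4 was thus lower in the KO libraries, but reads over its 3′-UTR remained in them, and it was higher in the RIP than in the Input in the KO as well as in the WT. Whether the deletion covers the counted region is not given in the sources used here. All 8 macrophage markers (Adgre1, Csf1r, Cd68, Itgam, Lyz2, Mertk, Cd14 and Fcgr1) had reads in each library, with a sum of 1764 to 4482 CPM. Markers of T cells, B cells, neutrophils, fibroblasts and erythroid cells that had a region summed to at most 9.05, 2.14, 1.15, 3.44 and 2.29 CPM in any library. Of the LPS-response genes Il1b, Tnf, Il6, Nos2, Cxcl10, Il10, Acod1 and Ptgs2, 7 of 8 were called higher after LPS in the WT Input, and the sum of all 8 went from 79.7 to 2703 CPM. The 3′-UTR reads made up 48.9% and 70.1% of the library total in the WT RIPs (untreated and LPS), 27.3% and 31.8% in the KO RIPs and 46.4 to 51.1% in the Inputs.

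A level is given for the region with the most reads of each gene, as CPM and, where genes are compared with each other, as CPM per kilobase of that region. In untreated cells Txnip had 459.6 CPM in the WT Input (427 reads) and 493.2 CPM in the KO Input (654 reads). It had 842 CPM in the WT RIP (1403 reads) and 350.7 CPM in the KO RIP (164 reads). With LPS the levels were 222 CPM in the WT Input (421 reads), 281 CPM in the KO Input (422 reads), 423 CPM in the WT RIP (1055 reads) and 185 CPM in the KO RIP (161 reads). Txnip was thus highest in the WT RIP and lowest in the KO RIP of each treatment, with the Inputs between them, and each LPS library was lower than its untreated counterpart.

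Per kilobase, Txnip was the most abundant member in each of the 8 libraries. Its level in the untreated WT Input was 339 CPM per kb (95% Wilson interval 309 to 373), above 97.9% of 10170 genes. Arrdc1, which binds the ESCRT component TSG101 and drives the budding of small vesicles from the plasma membrane, followed with 127 CPM per kb (89.1 to 181). Arrdc3, an adaptor in the trafficking of membrane receptors, had 10.3 CPM per kb (7.00 to 15.3). Arrdc4 had 5.75 CPM per kb (3.36 to 9.84) and Arrdc2, the least studied member, 5.48 CPM per kb (2.13 to 14.1). The intervals of Arrdc3, Arrdc4 and Arrdc2 overlapped, so these neighbours in the order did not differ beyond counting error. In the untreated WT RIP the order was Txnip at 622, Arrdc1 at 149, Arrdc3 at 62.5, Arrdc4 at 23.0 and Arrdc2 at 9.93 CPM per kb, and none of the neighbouring intervals overlapped. In the LPS-stimulated WT RIP Arrdc4 at 54.3 CPM per kb (48.7 to 60.5) stood above Arrdc3 at 26.4 (22.7 to 30.6).

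**Figure D1:**
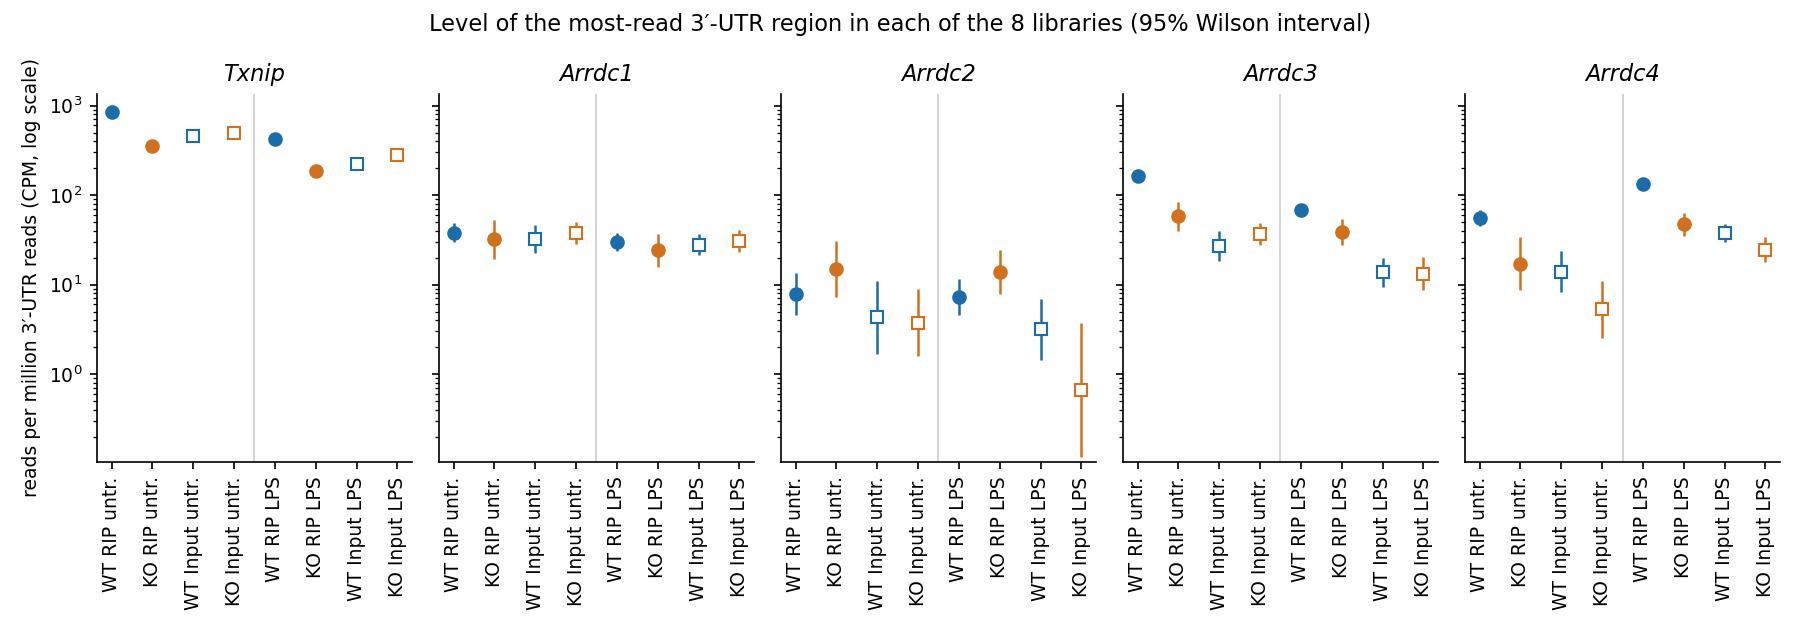
CPM (log scale) of the most-read region of each α-arrestin gene in the 8 libraries, with circles for RIP, open squares for Input, blue for WT, orange for KO, and bars for the 95% Wilson interval. Txnip lies between 185 and 842 CPM, Arrdc4 is higher in each LPS library than in its untreated counterpart, and the bars of Arrdc2 are wide because it has 1 to 18 reads per library.

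The 3′-UTR regions of the members are given in mm10 coordinates as deposited. The most-read region of Txnip lies on chromosome 3 (96560530 to 96561883, + strand, 1354 bases), and a shorter one ends at 96561857 and holds the same reads. The region of Arrdc1 lies on chromosome 2 (24925352 to 24925605, − strand, 254 bases), and that of Arrdc2 on chromosome 8 (70835155 to 70835940, − strand, 786 bases). The region of Arrdc3 lies on chromosome 13 (80893427 to 80896029, + strand, 2603 bases), and that of Arrdc4 on chromosome 7 (68737045 to 68739476, − strand, 2432 bases). Each lies within annotated exons of its own gene. An antisense gene, Gm15441, spans the Txnip locus on the opposite strand, but none of its annotated exons overlaps the Txnip regions. Whether the counting used the strand is not given in the sources used here, so reads from the opposite strand cannot be told apart.

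The CPEs and the hexanucleotides were located in the reference sequence of these regions, since the distance between them is what the deposited prediction uses. The search covered the transcribed strand, not its complement. A consensus CPE was TTTTAT or, alternatively, TTTTAAT. A nonconsensus CPE was TTTTACT or, with other letters after the run of T, TTTTAAAT or similarly TTTTAAGT or finally TTTTCAT. The G-containing CPE was TTTTGT and the AU-rich pentamer was ATTTA. The hexanucleotide was AATAAA or its variant ATTAAA. Consensus CPEs and the pentamer can share bases with each other or with a hexanucleotide. The counts of consensus CPEs, nonconsensus CPEs and hexanucleotides were equal to the deposited ones in 100% of 30622 regions. Txnip had 2 consensus CPEs, 1 nonconsensus CPE, 8 copies of TTTTGT and no ATTTA. Arrdc3 had 5 consensus CPEs, 3 nonconsensus CPEs, 7 copies of TTTTGT and 8 of ATTTA. Arrdc4 had 4 consensus CPEs, no nonconsensus CPE, 3 copies of TTTTGT and 4 of ATTTA. Arrdc2 had 1 consensus CPE and 1 TTTTGT but neither ATTTA nor a hexanucleotide, and Arrdc1 held a hexanucleotide and none of the other motifs.

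The following windows of at most 30 bases (mm10, read 5′ to 3′ on the gene's strand) are shown because they place the consensus CPE that lies nearest to the end of each 3′-UTR that has one, beside the other consensus CPE of Txnip. The capitals mark the CPE.
Txnip, last consensus CPE, chr3:96561837-96561866, + strand: aaaataaagttTTTTAATgacaaaaataaa
Txnip, other consensus CPE, chr3:96560993-96561022, + strand: tcagtgttccttTTTTATatctttacaaag
Arrdc4, last consensus CPE, chr7:68737086-68737115, − strand: gctttttaaaatTTTTATtaaaaatgtaat
Arrdc3, last consensus CPE, chr13:80895902-80895931, + strand: gctgttgtaatcTTTTATttggtgctgaat
Arrdc2, only consensus CPE, chr8:70835155-70835184, − strand: ggtctgaagaattgttcacTTTTATatatt

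In the Txnip window the TTTTAAT at position 1319, counted from the first base of the region, lies between AATAAA hexanucleotides at positions 1310 and 1332, with 6 bases between its end and the latter. The longer Txnip region, whose last hexanucleotide is the one at 1332, was deposited with the prediction of early and strong activation. In the shorter region the one at 1310 is the last, the TTTTAAT comes after it, and the deposited prediction was early and weak activation. The consensus CPE of Txnip further upstream, at position 476, lies 850 bases before the hexanucleotide at 1332. The last consensus CPE of Arrdc4, at position 2374, lies 29 bases before the AATAAA at 2409, shares its last bases with an ATTAAA, and the region was deposited as early and strong activation. A TTTTGT of Arrdc4 follows at 2422, after the AATAAA. In Arrdc3 the last consensus CPE is 88 bases away from the AATAAA at 2582, and the prediction was early and weak activation. The consensus CPE of Arrdc2, at position 776 of 786, lies in a region without a hexanucleotide, and neither Arrdc2 nor Arrdc1 carried a prediction.

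Among all genes, 3.73% had a most-read region predicted for early strong activation without repression, as for Txnip and Arrdc4. Early weak activation without repression, as for Arrdc3, made up 4.49%, and 68.2% had no prediction. A further 3.35% combined early strong activation with repression, and 3.20% early weak activation with repression. Shares called higher in the WT RIP than in the KO RIP are given untreated and with LPS. For tested genes with early strong activation and no repression they were 6.25% and 12.8%. For early weak activation and no repression they were 8.99% and 12.01%, for repression alone 9.82% and 18.0%, and without a prediction 4.63% and 6.98%. With repression added they were 16.0% and 23.1% for early strong activation, and 9.06% and 21.0% for early weak. Over all genes tested the shares were 6.81% and 11.1%. Untreated, the early strong class thus lay slightly below all genes where no repression was predicted, and above them where it was.

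The repeats of TTTTGT set Txnip apart from regions of its length. They are shown as a pair of windows, 1 from the copies that lie close together downstream and 1 from the other copies. The label upstream group stands for those other copies, which are spread out. The capitals mark 1 copy in each window.
Txnip, downstream group, chr3:96561728-96561757, + strand: cggttttgttgtTTTTGTattttgtgtatc
Txnip, upstream group, chr3:96560962-96560991, + strand: taagaggagtgtTTTTGTgtgttttttaaa
The downstream group holds 4 copies between positions 1202 and 1230, and the other 4 copies lie at 334, 428, 445 and 729. Among 1095 regions within 10% of the length of Txnip the median was 1 copy, and 0.548% had as many as 8. Of the same 1095 regions 79.7% held at least 1 ATTTA, and 68.8% at least 1 consensus CPE. In Arrdc3 the 7 copies of TTTTGT were matched or exceeded in 8.93% of 918 regions of its length, and in Arrdc4 the 3 copies in 42.5% of 953. For ATTTA the corresponding shares were 19.5% for the 8 copies of Arrdc3 and 53.6% for the 4 copies of Arrdc4.

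**Figure D2:**
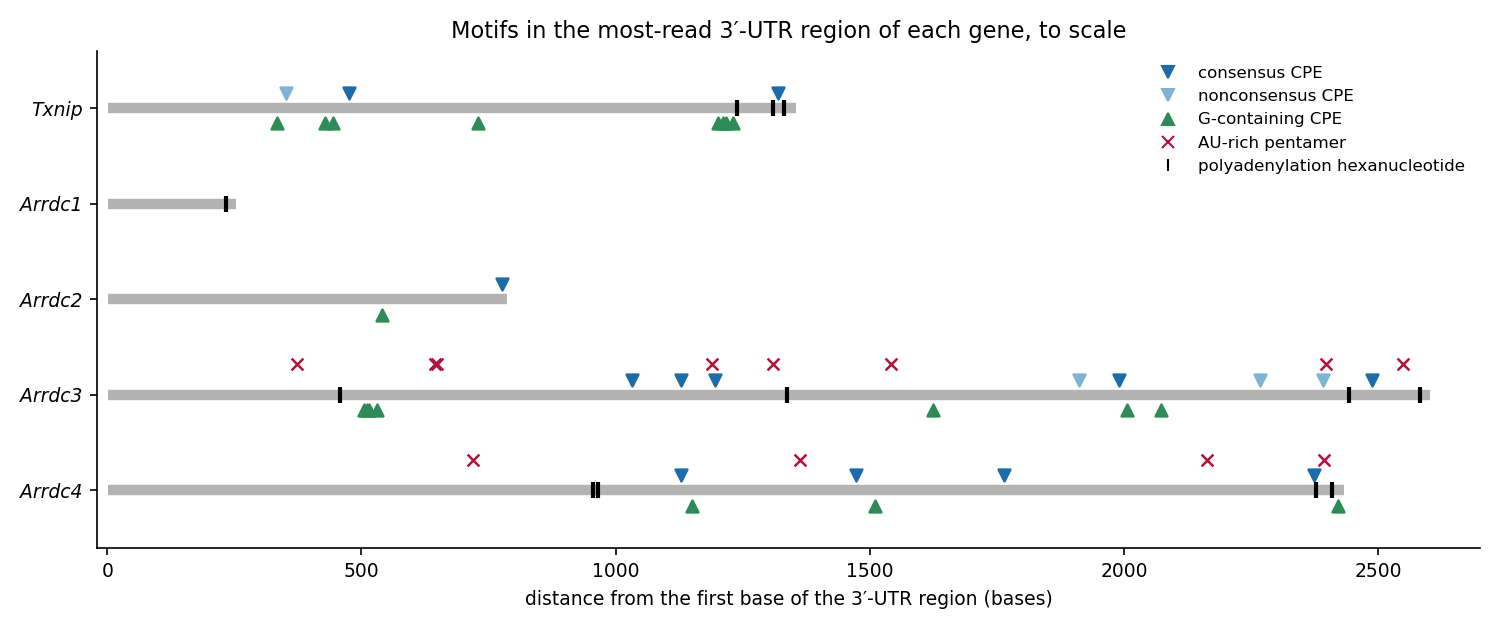
Position of each motif, in bases from the start of the most-read 3′-UTR region, with the regions drawn to scale as grey bars (triangles for CPEs, crosses for the AU-rich pentamer ATTTA, black ticks for hexanucleotides). Txnip carries 8 G-containing CPEs and no AU-rich pentamer, Arrdc3 and Arrdc4 carry 8 and 4 pentamers, and Arrdc1 has a hexanucleotide only.

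To ask which α-arrestin mRNAs depended on CPEB4 for their recovery, the WT RIP was set against the KO RIP. The reads of each region were set against all other 3′-UTR reads in a chi-square test. A gene was called by any of 3 criteria. The log2 ratio exceeded 0.5 in size with a Benjamini-Yekutieli adjusted p-value below 0.02, it exceeded 1.2 with an unadjusted p-value below 0.02, or, between RIPs, it exceeded 0.5 with a MACS peak score above 500. In untreated cells 3 of 5 members were called higher in the WT RIP, where 6.81% of 8064 genes tested were. With LPS 2 of 5 were, against 11.1% of 8310 genes. No member was called lower, where 9.34% of genes were untreated and 14.9% with LPS. The median log2 ratio of the 5 members was 1.26 untreated and 0.78 with LPS, beside -0.10 and -0.04 over all genes tested.

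Txnip, with 1403 reads in the WT RIP and 164 in the KO RIP, had a ratio above that of 94.3% of the genes tested in untreated cells, and with 1055 and 161 reads above that of 93.7% with LPS. On the linear scale these were 2.39-fold and 2.28-fold differences in CPM. The adjusted p-values of the chi-square test between the libraries were 2.05e-24 and 6.29e-21. A MACS peak was deposited over the region in both WT RIPs, with a score of 67.9 untreated and 664 with LPS, and none in the KO RIPs.

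Arrdc3 had 271 reads in the untreated WT RIP and 27 in the KO RIP, and 171 and 34 reads with LPS. Its log2 ratio was 1.45 (95% interval 0.89 to 2.01, adjusted p-value 2.68e-05) untreated. With LPS it was 0.78 (0.26 to 1.31, adjusted p-value 0.096), which did not pass the rule. It did pass with Benjamini-Hochberg adjustment, with TMM scaling (1.002) and with library totals (1.92). Both WT RIPs had 2 MACS peaks over the Arrdc3 region, with the highest score at 235 untreated and 142 with LPS, and the KO RIPs had none. The upstream 894 bases alone, annotated as a separate region, had 96 and 5 reads in the untreated RIPs, a log2 ratio of 2.18 (0.99 to 3.37, adjusted p-value 0.0056).

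Arrdc4 had 93 reads in the untreated WT RIP and 8 in the KO RIP, a log2 ratio of 1.55 (0.57 to 2.54). Its adjusted p-value was 0.058, and it was called on the unadjusted p-value of 0.00067. With LPS it had 329 and 41 reads, a log2 ratio of 1.46 (0.99 to 1.92, adjusted p-value 1.85e-08), and 2 MACS peaks with a score of up to 525 in the WT RIP.

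The remaining members were not called, and their intervals included 0. Arrdc1 had 63 and 15 reads untreated and 75 and 21 with LPS, with log2 ratios of 0.17 (-0.62 to 0.96) and 0.27 (-0.41 to 0.96). With library totals the LPS value of Arrdc1 was 1.41 and was called. Arrdc2 had 13 and 7 reads, and 18 and 12 with LPS. Its log2 ratios were -1.03 (-2.28 to 0.23) and -0.97 (-1.99 to 0.05), and with library totals the LPS value was 0.17.

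These calls assume that reads vary between libraries by counting error. When edgeR's exact test was run with the variation between libraries set to 0.4, no member was called in untreated cells, where 1.03% of genes were. With LPS 2 members were called, where 4.21% of genes were. The peak-score criterion stayed in this rule, and with LPS Txnip (score 664, log2 ratio 1.19) and Arrdc4 (525, 1.46) met it whatever the edgeR p-value. Their LPS calls therefore do not show that they withstand this variation. Untreated, no member had a score above 500. Scaling also moved the values, and the WT and KO RIPs differed in more than the members. The summed macrophage markers had 2164 CPM in the untreated WT RIP and 4482 in the KO RIP, and 1764 and 3107 with LPS, and the 3′-UTR share of the reads differed as given above. The part of either in the results was not tested. With the library totals implied by the deposited RPKM the median of all genes rose by 0.84 untreated and by 1.14 with LPS on the log2 scale, and with TMM by 0.19 and 0.22. The share of genes called higher was then 33.6% and 53.1% with the library totals, and 11.1% and 17.3% with TMM. Relative to the median of all genes, which no scaling alters, Txnip was higher by 1.35 untreated and 1.23 with LPS, Arrdc3 by 1.54 and 0.83, Arrdc4 by 1.65 and 1.503, and Arrdc1 by 0.26 and 0.32, while Arrdc2 stood at -0.93 and -0.92.

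The Inputs give the background of this comparison. None of the 4 members tested was called between the WT Input and the KO Input in either treatment. Of all genes, 0.854% untreated and 1.46% with LPS were called higher in WT, and 1.45% and 1.46% lower. Arrdc2 had too few reads to be tested. At an unadjusted p-value under 0.05, Arrdc4 was higher in the WT Input with 13 against 7 reads untreated and 71 against 37 with LPS, and Txnip was lower in the WT Input with LPS (421 against 422 reads, log2 ratio -0.34, interval -0.53 to -0.15). The input-corrected ratio subtracts the log2 ratio of the Inputs from that of the RIPs. For Arrdc3 it was 1.88 (0.99 to 2.76) untreated, reached by 38 of 4471 genes whose reads numbered 10 or more in all 4 libraries, and 0.76 (-0.22 to 1.73) with LPS. Txnip had the narrowest intervals, 1.07 to 1.65 untreated and 1.22 to 1.84 with LPS, and 129 of 5478 genes reached its LPS value. For Arrdc4 the ratio was 0.23 (-1.36 to 1.83) untreated, an interval that spans 0, and 0.87 (0.14 to 1.60) with LPS. Arrdc1 had 0.37 and 0.41 and Arrdc2 -1.28 and -2.44, all with intervals that include 0.

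**Figure D3:**
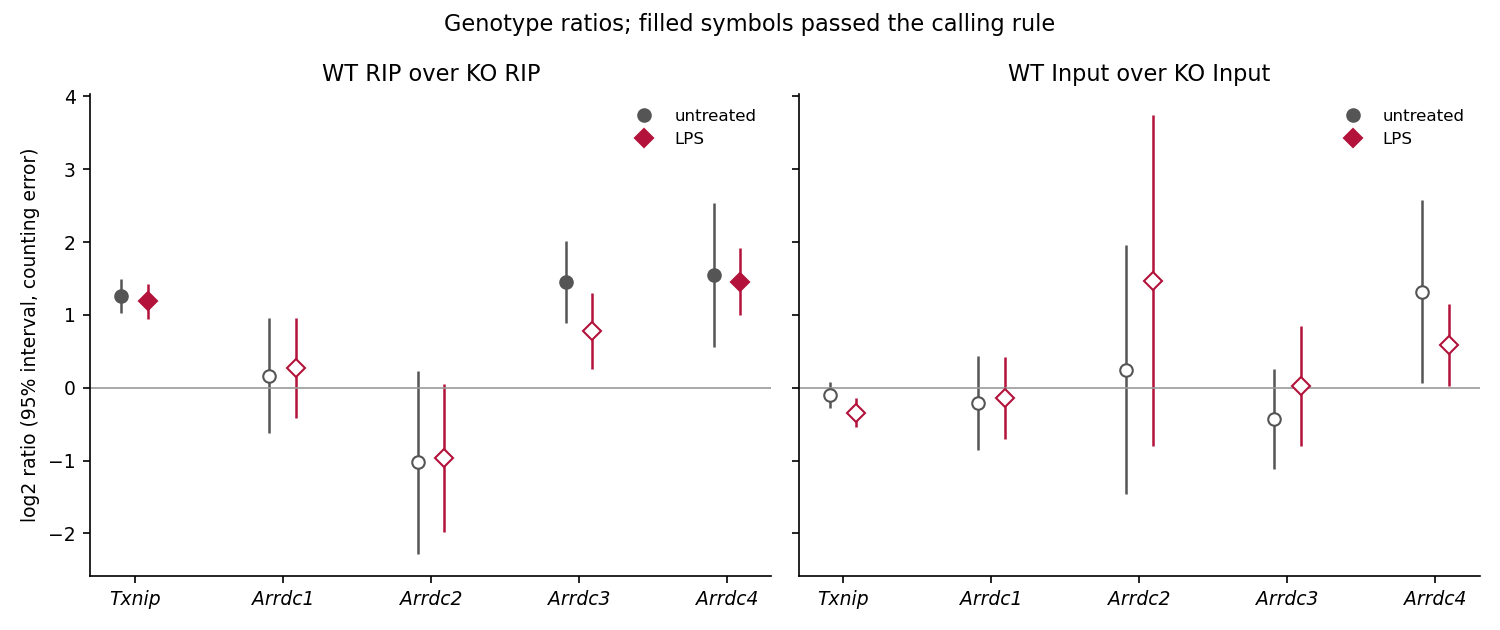
Log2 ratio of WT over KO for each α-arrestin gene in the RIP (left) and in the Input (right), untreated (grey circles) and with LPS (red diamonds), with 95% intervals from the read counts and filled symbols where the calling rule was passed. Txnip, Arrdc3 and Arrdc4 lie above 0 in the RIP panel while no symbol is filled in the Input panel.

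RIP and Input were then compared within each genotype. In the WT, 3 of 5 members were called higher in the RIP in both treatments, namely Txnip, Arrdc3 and Arrdc4, against 23.5% of 8359 genes untreated and 25.1% of 8767 with LPS. Arrdc3 had the highest ratio, with 271 RIP and 25 Input reads untreated and 171 and 26 with LPS. Its log2 ratios were 2.54 (1.96 to 3.12) and 2.28 (1.69 to 2.86), above those of 94.8% and 94.7% of genes. Arrdc4 followed with 1.90 (1.09 to 2.71) and 1.80 (1.44 to 2.17), and Txnip with 0.87 (0.72 to 1.03) and 0.93 (0.77 to 1.09). Arrdc1 had 0.20 (-0.42 to 0.82) and 0.10 (-0.40 to 0.60). No member was called lower in the WT RIP than in the Input, where 21.3% and 28% of genes were. With the preset variation of 0.4 in edgeR, 1 member, Arrdc3, was called in each treatment, against 6.17% of genes called higher untreated and 5.44% with LPS.

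In the KO the members parted in another way. Txnip was lower in the RIP than in the Input, by a log2 ratio of -0.49 (-0.73 to -0.24) untreated and -0.60 (-0.86 to -0.34) with LPS, and the latter was called, as were 11.8% of genes. Untreated, no member was called lower, against 8.99% of genes. With TMM, median-of-ratios and library-total scaling the untreated value was called too, at -0.59, -0.54 and -1.25. Of the members 2 of 5 were called higher in the KO RIP in each treatment, against 14% of genes untreated and 15.6% with LPS. These were Arrdc2 and Arrdc4 untreated, and Arrdc2 and Arrdc3 with LPS. Arrdc4 rested on 8 RIP and 7 Input reads, and Arrdc2 on 7 and 5 reads untreated and on 12 and 1 with LPS. Arrdc3 had 34 RIP and 20 Input reads with LPS, a log2 ratio of 1.52 (0.74 to 2.30). The untreated call of Arrdc4 was lost with TMM, median-of-ratios and library-total scaling and with the exact binomial test. Library totals also ended the untreated call of Arrdc2 (1.15) and the LPS call of Arrdc3 (0.84), and edgeR with the preset variation kept the LPS call of Arrdc2 and no other. With that variation 1.69% of genes untreated and 1.77% with LPS were called higher in the KO RIP, and 0.44% and 0.34% lower.

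**Figure D4:**
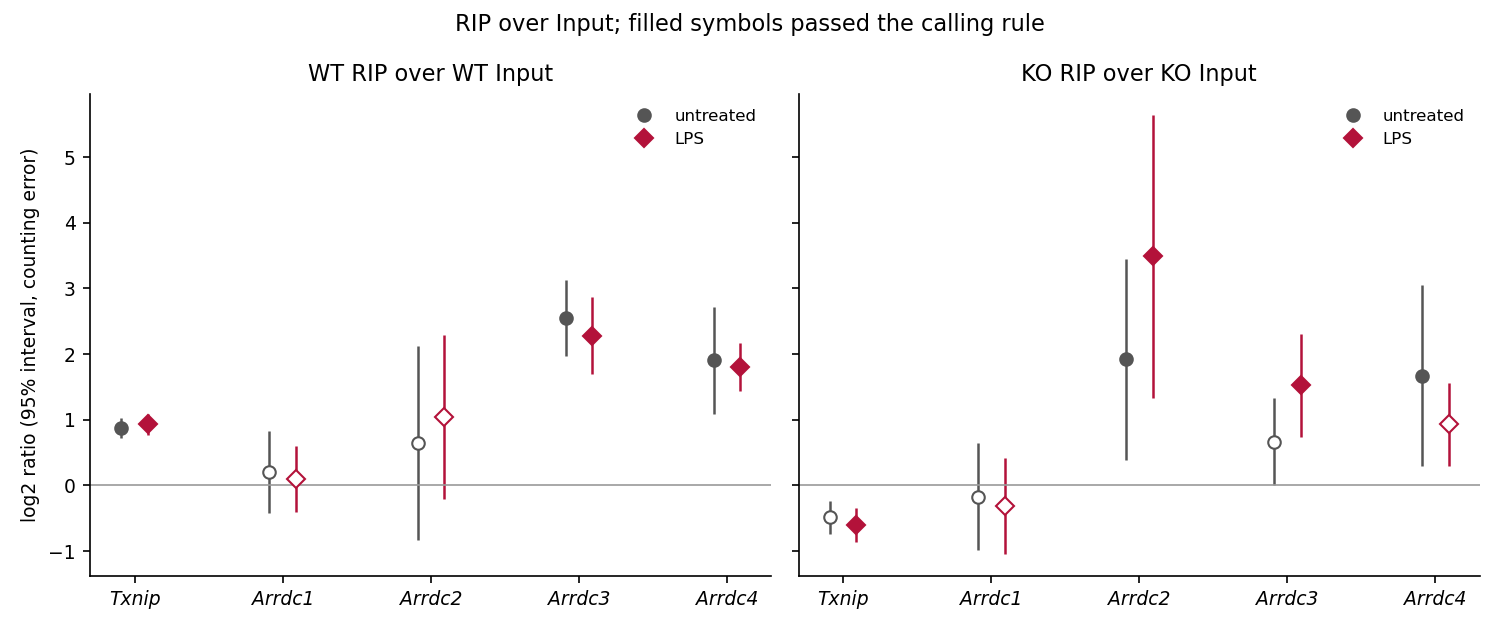
Log2 ratio of RIP over Input in WT (left) and KO (right) for each α-arrestin gene, untreated (grey circles) and with LPS (red diamonds), with 95% intervals from the read counts and filled symbols where the calling rule was passed. Txnip lies above 0 in the WT and below 0 in the KO, while Arrdc2, Arrdc3 and Arrdc4 lie above 0 in both.

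Txnip was set against each relative within the same libraries, where scaling cancels. Its WT over KO RIP log2 ratio exceeded that of Arrdc1 by 1.09 (0.27 to 1.91) untreated and 0.92 (0.19 to 1.64) with LPS, and that of Arrdc2 by 2.28 (1.01 to 3.56) and 2.16 (1.11 to 3.20). It was not separated from Arrdc3, with differences of -0.19 (-0.80 to 0.42) and 0.41 (-0.17 to 0.98), or from Arrdc4, with -0.30 (-1.31 to 0.72) and -0.27 (-0.79 to 0.25). In the WT RIP over Input, by contrast, Txnip was below Arrdc3 by a log2 difference of -1.67 (-2.27 to -1.07) untreated and -1.35 (-1.96 to -0.74) with LPS. It was below Arrdc4 by -1.03 (-1.86 to -0.21) and -0.87 (-1.28 to -0.47). In the KO RIP over Input it was below Arrdc3 by -1.15 (-1.86 to -0.44) untreated and -2.12 (-2.94 to -1.30) with LPS, and below Arrdc4 by -2.16 (-3.55 to -0.76) and -1.53 (-2.21 to -0.84).

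The response to LPS separated Txnip from Arrdc4, which the WT over KO RIP ratio had not separated. In the WT Input Txnip went from 427 reads (459.6 CPM) to 421 reads in a deeper library (222 CPM), a log2 ratio of -1.05 (-1.24 to -0.86, adjusted p-value 6.99e-25). In the KO Input it was -0.81 (-0.99 to -0.63, adjusted p-value 1.16e-17), in the WT RIP -0.99 (-1.11 to -0.88) and in the KO RIP -0.92 (-1.24 to -0.61). With library totals the value in the WT RIP was -0.47 and was not called. It was called lower in all 4 kinds of library, as were 16.5%, 20%, 22% and 16.8% of all genes in the same order. CPM is a share of the 3′-UTR reads, so less Txnip RNA and a rise of other mRNAs cannot be told apart. Nor can fewer cells with Txnip RNA, among all cells, be told from less of it in each cell in these bulk libraries.

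Arrdc4 moved in the opposite direction. Its reads went from 13 to 71 in the WT Input, from 7 to 37 in the KO Input, from 93 to 329 in the WT RIP and from 8 to 41 in the KO RIP. The log2 ratios were 1.33 (0.51 to 2.16), 2.07 (0.97 to 3.17), 1.23 (0.90 to 1.56) and 1.32 (0.29 to 2.36). It was called higher in all 4, as were 13.7%, 14.4%, 13.8% and 12.2% of genes. In the WT Input the adjusted p-value was 0.029 and in the KO RIP 0.22, so those calls rested on the unadjusted p-value. The log2 change of Txnip was below that of Arrdc4 by -2.38 (-3.23 to -1.53) in the WT Input, -2.88 (-3.99 to -1.76) in the KO Input, -2.22 (-2.57 to -1.87) in the WT RIP and -2.25 (-3.33 to -1.16) in the KO RIP.

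Arrdc3 had lower CPM after LPS in each kind of library. It was called in the KO Input, where 49 reads became 20 (log2 ratio -1.43, -2.17 to -0.70), and in the WT RIP, where 271 reads became 171 (-1.24, -1.52 to -0.97). In the WT Input its ratio was -0.98 (-1.75 to -0.20) and in the KO RIP -0.58 (-1.29 to 0.14), and neither passed. The changes of Arrdc1 lay between -0.44 and -0.23 and those of Arrdc2 between -1.77 and -0.14, with intervals that include 0. Arrdc2 was not tested in the KO Input, where it had 5 reads untreated and 1 with LPS. With the preset variation of 0.4 in edgeR, none of the members was called in any of the 4 LPS comparisons. Of all genes, 3.93 to 4.45% were then called higher and 3.24 to 4.48% lower, so few calls among 5 genes would be usual.

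**Figure D5:**
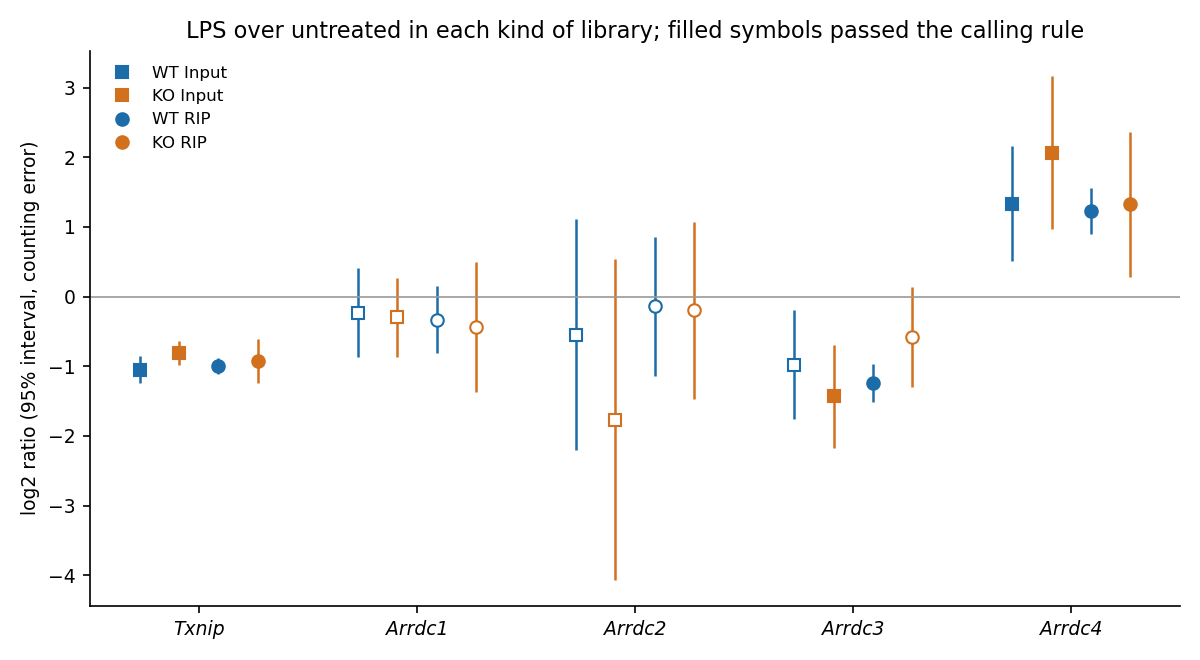
Log2 ratio of LPS over untreated for each α-arrestin gene in the WT and KO Input (squares) and the WT and KO RIP (circles), with 95% intervals from the read counts and filled symbols where the calling rule was passed. The 4 ratios of Txnip lie between -1.05 and -0.81 and those of Arrdc4 between 1.23 and 2.07.

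The association with CPEB4 was then compared between treatments. The WT over KO RIP ratio with LPS minus that of untreated cells was -0.07 (-0.40 to 0.27, Benjamini-Hochberg adjusted p-value 0.91 over 4460 genes) for Txnip, -0.67 (-1.43 to 0.10, adjusted 0.48) for Arrdc3 and 0.11 (-0.94 to 1.15, adjusted 0.95) for Arrdc1. For Arrdc3 the call was lost with LPS, but the difference itself did not pass the test. Arrdc2 and Arrdc4 had fewer than 10 reads in a KO RIP and were not tested. The LPS change of the WT Input minus that of the KO Input was -0.24 (-0.50 to 0.02, adjusted 0.40) for Txnip. The LPS change in the WT RIP minus that in the WT Input was 0.06 (-0.17 to 0.28) for Txnip, -0.10 (-0.99 to 0.79) for Arrdc4 and -0.27 (-1.09 to 0.56) for Arrdc3, and none of these passed. The upper bound of 0.28 for Txnip covers counting error only, so it sets no limit on a change between conditions. The difference also depends on scaling. With library totals the median LPS change of all genes moved by 0.52 in the WT RIP and by 0.07 in the WT Input.

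The genes whose level over the 8 libraries was most like that of Txnip were named by the correlation of log2(CPM + 1), among 4093 genes with at least 10 reads in each library. They were Ifngr1 (r = 0.989), a chain of the interferon-γ receptor, Tpm1 (0.985), a tropomyosin, Tmem106b (0.978), a lysosomal membrane protein, Smad5 (0.977), a transducer of BMP signals, and Tmx4 (0.976), a membrane protein of the thioredoxin family. The libraries share cells and the RIPs their Inputs, so the values describe a pattern over 8 points. Ifngr1 had 155 CPM in the untreated WT RIP, 51.3 in the KO RIP, 65.7 in the WT Input and 73.9 in the KO Input. With LPS it had 50.2, 14.9, 25.3 and 33.9 CPM. Among the relatives, Arrdc1 (r = 0.8998) ranked 63rd and Arrdc3 (r = 0.693) ranked 516th. Arrdc4, which did not reach 10 reads in each library, had r = -0.08 with Txnip.

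Proteins that act with the family were examined through lists of genes. Of the listed genes 6 calls for a higher level in the untreated WT RIP and 8 with LPS held under TMM, median-of-ratios and library-total scaling. The calls for a lower level, 7 untreated and 11 with LPS, depended on the scaling. TMM kept 4 and 8 of them and lost Wwp2 and Prkag1 untreated, Hk1 and Usp5 with LPS, and Prdx1 in both. Median of ratios kept 7 and 9 and lost Prdx1 and Hk1 with LPS. Library totals kept 0 and 2, the latter Prdx5 and Msrb1, and turned the sign of Prdx1 untreated (0.21) and of Arrb1 (0.13) and Hk1 (0.44) with LPS, while Prdx1 with LPS (0.56) was called higher. Both Arrb1 and Arrb2, which encode the β-arrestins and were the only listed arrestins with enough reads, were called lower in the WT RIP than in the KO RIP in both treatments. Arrb1 had 483 and 291 reads untreated (log2 ratio -1.10) and 200 and 141 with LPS (-1.01), and Arrb2 had 138 and 93 (-1.27) and 103 and 107 (-1.57). In the same comparison 9.34% of genes were called lower untreated and 14.9% with LPS. Arrb1 also fell after LPS, by a log2 ratio of -1.23 in the WT Input and -1.60 in the KO Input.

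Of the NEDD4 family ligases, 6 of 9 had enough reads, and 1 was called higher and 1 lower in the untreated WT RIP, against 6.81% and 9.34% of all genes. Smurf2, which degrades SMADs and receptors of the TGF-β pathway, was the higher, with 151 and 15 reads and a log2 ratio of 1.42 (0.67 to 2.16), and it was called with LPS too (0.86). Wwp1 was called with LPS, at 0.96 with 222 and 39 reads. Untreated it had 1388 and 301 reads and a log2 ratio of 0.37 (0.19 to 0.55, adjusted p-value 0.0067), under the size that the rule asks for, and the difference between treatments was not tested. Wwp2 was called lower in both treatments, at -1.32 and -1.85. After LPS Wwp1 fell from 355 to 40 reads in the WT Input and from 535 to 39 in the KO Input, log2 ratios of -4.15 and -3.92, and Wwp2 had log2 ratios of -0.86 and -0.997, both called lower. The median of the tested ligases in the WT Input was -0.63 after LPS, beside -0.08 over all genes.

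The thioredoxin system, whose central protein TXNIP inhibits, held 15 genes. In the RIPs none of the 12 tested was called higher in WT, while 2 untreated and 4 with LPS were called lower. Of all genes tested in the RIPs, 6.81% untreated and 11.1% with LPS were called higher, and 9.34% and 14.9% lower. The peroxiredoxins Prdx1 and Prdx2 were called lower in both treatments, at -0.64 and -1.27 untreated and at -0.58 and -1.70 with LPS. Prdx5 (-1.67) and the methionine sulfoxide reductase Msrb1 (-1.96) were called lower with LPS. After LPS 5 of 12 were called higher and 1 lower in the WT Input, and 8 and 0 in the KO Input. Over all genes 13.7% were higher and 16.5% lower in the WT Input, and 14.4% and 20% in the KO Input. Prdx5 rose from 35 to 331 reads in the WT Input (log2 ratio 2.17) and from 34 to 305 in the KO Input (2.95). The glutaredoxin Glrx rose from 4 to 46 and from 1 to 35 reads, with log2 ratios of 2.203 (0.87 to 3.53) and 3.99 (1.94 to 6.04). Thioredoxin itself, Txn1, went from 12 to 56 reads in the WT Input, which was not called, and from 6 to 45 in the KO Input, which was (log2 ratio 2.54).

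Genes of glucose sensing and uptake were called in both directions. In the untreated WT RIP 3 of 10 were higher than in the KO RIP and none lower, against 6.81% and 9.34% of all genes. These were Mlx, the partner of the Mondo factors (129 and 11 reads, log2 ratio 1.60, 0.75 to 2.46), the glucose transporter Slc2a1 (164 and 17 reads, 1.36) and the hexokinase Hk2 (236 and 32 reads, 1.01). All 3 were called with LPS as well, at 1.29, 0.69 and 0.72, while Slc2a6 (-1.48), Hk1 (-0.70) and Hk3 (-1.39) were called lower. With LPS 8 genes of this list were tested, and 11.1% of all genes were called higher and 14.9% lower. After LPS 6 of 10 rose and 2 fell in the WT Input, where 13.7% and 16.5% of all genes did, and 7 and 2 in the KO Input, where 14.4% and 20% did. Slc2a6 had the largest change, from 13 to 464 reads in the WT Input (log2 ratio 4.02) and from 10 to 372 in the KO Input (4.90), and Slc2a1 rose by 2.66 and 2.98. Mlx rose by 0.87 and 1.01, as Arrdc4 did and Txnip did not. Mlxip, which encodes a Mondo factor, had log2 ratios of -0.18 and -0.35 and was not called.

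Among 18 partners and regulators of the family, 16 were tested untreated, with 2 called higher and 2 lower in the WT RIP. With LPS 14 were tested, with 3 higher and 1 lower. Of all genes tested, 6.81% were called higher and 9.34% lower untreated, and 11.1% and 14.9% with LPS. Ddit4, a stress-induced inhibitor of mTORC1, was called higher in the WT RIP in both treatments, with 45 and 4 reads untreated (log2 ratio 1.37, 0.04 to 2.70) and 250 and 46 with LPS (0.90). Nr3c1, the glucocorticoid receptor, was called higher at 0.62 and 0.54, and Prkaa1, a catalytic subunit of AMPK, with LPS at 1.13. The AMPK subunits Prkab2 (-1.55) and Prkag1 (-1.29) were called lower untreated and the deubiquitinase Usp5 (-1.28) with LPS. Nlrp3, the inflammasome sensor, rose after LPS from 14 to 282 reads in the WT Input (log2 ratio 3.21) and from 25 to 148 in the KO Input (2.34). In the RIPs Nlrp3 had log2 ratios of 0.34 and 0.26 and was not called.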

How the data were processed

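RIP and Input libraries of WT and CPEB4 KO BMDMs were compared over 3′-UTR regions. According to the study's methods, the authors crosslinked cells with formaldehyde, sonicated the lysate and immunoprecipitated with anti-CPEB4. The labels state rRNA depletion for the Input. None is stated for the RIP, so RIP and Input may also differ in preparation. Reads were aligned to mm10 with Bowtie2 (version 2.2.2 in the submitters' processing notes), duplicates were removed, and reads overlapping Ensembl 3′-UTRs were counted, with lanes 7 and 8 summed. The deposited counts are these reads per region, not normalized. The deposited RPKM values divide them by region length and library total, and served only to derive that total. The deposited score is the highest MACS (version 1.4.2) peak score over a region in a RIP, beside the number of peaks. Deposited p-values and fold changes of the authors' comparisons were not used. Motif counts and activation predictions were deposited per region.

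Of 31117 regions, 495 without a symbol were left out. They held 0.902 to 1.04% of the reads of a library. Library totals were the 3′-UTR reads of the remaining regions, 467696 to 2492300 per library, and CPM means reads per 1000000 of these. The region with the most reads stood for a gene (the longest in a tie). A log2 ratio added 1 read to each library, and its 95% interval is the normal interval from the read counts. A two-sided Pearson chi-square test was run on each region with at least 10 reads in the pair, with Benjamini-Yekutieli adjustment over all of them. The calling thresholds follow the study's methods, but the test and the scaling to 3′-UTR reads were chosen here, and the ratio is not that of the deposited RPKM. Input-corrected ratios and differences between genes have intervals and no test. Differences between treatments were tested with a normal test from the read counts. With 1 library per group, p-values measure counting error only. PCR reads without molecular identifiers are not independent molecules.

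Named genes are the 5 members, Cpeb4, the listed genes called between the RIPs, the 2 genes per list with the largest LPS change called in both Inputs, and the 5 most like Txnip. A gene that this rule names among the partners and regulators is not reported here. Values of Txn1, Mlxip and Nlrp3 in the RIPs were added after they were seen. The members and lists were chosen with earlier results of these data known. Motifs were located in the GRCm38.p6 reference, and exons come from GENCODE M21. Alternatives were other scalings (library totals, TMM, median of ratios), 0.1 reads added, the longest region, edgeR's exact test with a preset variation of 0.4, an exact binomial test, Benjamini-Hochberg adjustment, minimums of 1 and 50 reads, and the rule without the MACS score. Python 3.11.15, scipy 1.17.1, pysam 0.24.0, R 4.3.3 and edgeR 4.0.16 were used.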

Additional observations from a re-analysis of the deposited data

How the results depend on the processing

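No paired analysis was possible because the lanes that share a number were summed into 1 column per library, and each group is 1 library. For the same reason no library could be left out. The number of members called kept within 1.5 times in most alternatives. With edgeR's preset variation of 0.4 it was 0 in the untreated WT over KO RIP, 1 in the WT RIP over Input untreated, 1 with LPS, 0 and 1 in the KO RIP over Input untreated and with LPS, and 0 in each of the 4 LPS comparisons. Shares of all genes at this setting are given above. In the KO RIP over Input untreated the number of members was 1 with the exact binomial test, 1 with library totals and 0 with at least 50 reads. At these settings 13.05%, 4.13% and 13.0% of genes were called higher, and 9.41%, 34.5% and 15.3% lower. The minimum of 50 reads also left 1 member in the LPS comparison of the KO RIP, where 20.0% of genes were called higher and 19.2% lower. With library totals the number of members was 4 in the WT over KO RIP with LPS, where Arrdc3 (1.92) and Arrdc1 (1.41) joined Txnip and Arrdc4. Of all genes 53.1% were called higher there. The input-corrected ratio of Txnip was 1.53 with TMM and 2.19 with library totals untreated, and 1.79, 2.73 and, with median of ratios, 1.70 with LPS. With library totals Txnip's LPS change in the WT RIP was -0.47 and was not called.

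Signs turned for values that were not called in the report. Arrdc1 in the WT RIP over Input with LPS was -1.75 and called lower in the longest region, where its LPS change in the WT RIP was -1.27 and called lower too. That region of 460 bases lies upstream of the most-read one. Of its bases, 177 and 206 also lie in 2 exons of the transcript whose 3′-UTR is the most-read region, so its reads are not specific to a 3′-UTR. Arrdc1 in that region was also 0.32 (LPS change, WT Input), -0.15 (WT RIP over Input, untreated), -0.52 (WT over KO RIP, LPS) and 0.38 (WT over KO Input, LPS), and with library totals 0.19 (LPS change, WT RIP). Arrdc2 with TMM, library totals and median of ratios was 0.059, 0.023 and 0.014 for the LPS change in the KO RIP and 0.14, 0.38 and 0.10 in the WT RIP, and 0.17 with library totals in the WT over KO RIP with LPS. Arrdc3 was -0.10 in the untreated KO RIP over Input with library totals, and -0.017, -0.031 and -0.055 in the WT over KO Input with LPS under TMM, library totals and median of ratios. Depth limits Arrdc2, with 1 to 18 reads per library, and Arrdc4 in the untreated KO libraries, with 7 and 8 reads.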
